A study of Mus musculus with 4 samples.

Results

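The 8 mouse genes Mbnl1, Tra2b, Cnbp, Dhx9, Cbl, Arl4c, Pde3b and Tfrc carried some of the strongest peaks of dimethylated histone H3 lysine 79 (H3K79me2) in control thymocytes. They were chosen by name from the peaks of the control list, among 21887 protein-coding genes of chromosomes 1 to 19, X and Y. The values come from chromatin immunoprecipitation followed by sequencing (ChIP-seq) of double-negative thymocytes of C57BL/6 mice, with 1 library per condition. The inhibitor cells were grown with A939572, a blocker of SCD1, the desaturase that turns stearic acid into oleic acid, at a dose not given in the sources used here. The control cells received the vehicle DMSO. Both cultures started from haematopoietic stem cells, which grew on the bone marrow stromal line OP9-DL1 with the cytokines Flt-3L (5 ng/mL) and IL-7 (2 ng/mL) and were taken at the DN3 stage, so both cultures included a feeder layer. The 2 matching input libraries are not analysed here. The comparison addresses where H3K79me2 lies when oleic acid synthesis is blocked in early T cell development.

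H3K79me2 is written by the methyltransferase DOT1L behind elongating RNA polymerase and lies over transcribed genes, highest near the 5′ end and declining towards the 3′ end. The DN3 stage is the point at which the T cell receptor beta chain is rearranged and tested, and the cells that pass divide quickly. Of the 8 genes, 4 encode proteins that bind RNA: Mbnl1 and Tra2b regulate alternative splicing, Cnbp is a zinc-knuckle protein that binds single-stranded nucleic acids, and Dhx9 is an RNA helicase. The other 4 act at membranes and in signalling. Cbl is a ubiquitin ligase that dampens receptor signalling, Arl4c is a small GTPase of the ARF family that recruits cytohesins to the plasma membrane, Pde3b degrades cyclic AMP, and Tfrc, also called CD71, is the receptor that takes up iron-loaded transferrin.

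Each value is a property of the authors' broad peaks, which were called separately in each library. Fold enrichment is the authors' ratio to the background of the peak caller and q is their adjusted p, both as means over a peak, so they describe peaks within a list and are not compared between lists. With 1 library per condition no difference has a replicate check, and no p-value was computed. Read depth is unknown. The inhibitor list held 35010 peaks on these chromosomes, 6527 of them at q up to 0.05, and the control list 124954, 803 of them at that q. Their covered lengths were 233.6 Mb and 234.7 Mb, and 153.3 Mb and 11.1 Mb at that q. Of 14 T lineage markers, 13 were covered over at least 50% of the body in inhibitor cells and 10 in control cells. That level was reached by 26.1% and 5.47% of all coding genes. Ptcra was under that level in both lists, at 47.1% and 18.1%. Cd3e was at 100% and 0%, but its inhibitor peak had a −log10 q of 0.777. At q up to 0.05 Cd3e was thus at 0% in both lists. Of 34 markers of stroma, myeloid, B, erythroid and megakaryocyte cells, 3 were covered to that extent in inhibitor cells and 0 in control cells. These were the stromal gene Thbs1 (59.0% and 11.8%), the myeloid gene Cd68 (100% and 0%) and the B cell gene Blk (75.3% and 22.2%). The peak over Cd68 was 29.3 kb wide and also lay over Eif4a1 and Senp3, so its coverage cannot be given to Cd68 alone. Of the 34 markers, 6 were 25 points or more higher in inhibitor cells, among them Pdgfrb (45.3% and 9.18%), Cd33 (30.7% and 0%) and Itga2b (28.3% and 0%). In control cells 1 was so, Pf4 (0% and 31.4%). Over all coding genes the shares were 30.1% and 3.07%, so neither count was above background. The peaks on Cd33, Itga2b and Pf4 had q above 0.05. At 0% in both lists were 13 of the 34, among them Pdgfra, Col1a1, Cd79a, Gata1 and Hba-a1. The part of other cells in the values below was not tested.

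The genes were chosen on the strength of their control peaks, so their control values are a description. Their highest control folds ran from 5.17 at Dhx9 to 6.88 at Mbnl1, the highest of any coding gene. Dhx9 and Pde3b, at 5.17 and 5.18, lay just inside. P2ry10, which encodes a receptor coupled to G proteins, and Cdv3 lay just outside at 5.09 and 5.08. Of the 12 coding genes at or above 5.17, 4 are not among the 8: Srgap3 (6.61), Stard3nl (6.58), the splicing factor gene Srsf3 (6.05) and Gm44064, which shares the control peak of Cnbp. By −log10 q the 8 genes stood between rank 2 (Mbnl1, 41.8) and rank 33 (Cbl, 16.6) in control cells. The next genes below Cbl were Ddx6 at 15.6 and Rhoh at 15.2.

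**Figure D1:**
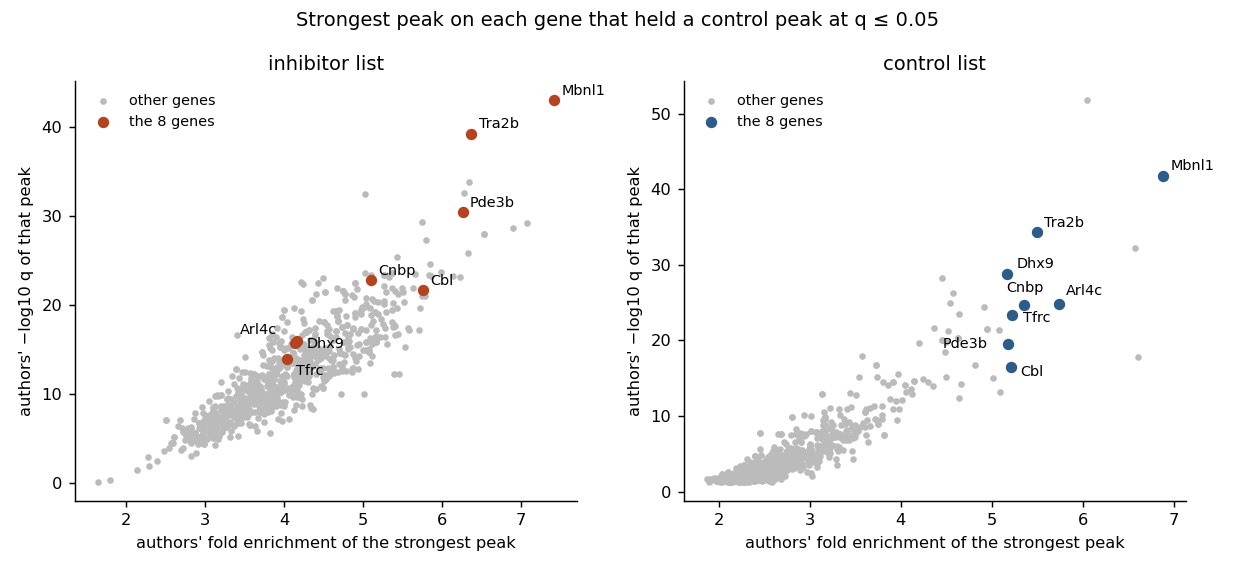
Each point is a coding gene with a control peak at q up to 0.05. The horizontal axis gives the authors' fold enrichment of its strongest peak and the vertical axis the −log10 q of that peak, in inhibitor cells (left) and control cells (right), with the 8 genes in colour. In the inhibitor list the 8 genes lie between a fold of 4.03 at Tfrc and 7.42 at Mbnl1. In the control list, on which they were chosen, they lie at 5.17 and above.

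Peaks of the inhibitor list covered the bodies of all 8 genes nearly from end to end, and the control list covered 4 of them over at least 80%. In the inhibitor list at least 80% of the body was covered at 8 of 8 genes, a level reached by 14.8% of coding genes. The control list reached it at 4 of 8 (Mbnl1, Tra2b, Arl4c and Pde3b), against 1.49% of coding genes. At 50% of the body the counts were 8 of 8 in inhibitor cells, with 26.1% of coding genes called, and 7 of 8 in control cells, with 5.47% called. Tfrc was the gene below 50% in control cells. With peaks at q up to 0.05 alone they were 8 of 8, with 19.6% called, and 5 of 8, with 1.33% called, Cbl and Dhx9 having dropped out. Median coverage of the 8 genes was 100% in inhibitor cells, with a range of 93.9% to 100%, and 78.2% in control cells, with a range of 36.4% to 98.3%. The ranges overlap, because the control values of Mbnl1, Tra2b and Arl4c exceed the inhibitor value of Cbl.

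Coverage was higher in inhibitor cells at each of the 8 genes, by 1.50 to 63.1 percentage points. Among 850 other coding genes with a control peak at q up to 0.05, it was higher in control cells at 17 (2%). The direction is thus not particular to the 8 genes. A difference of 25 points or more was found at 3 of 8 genes, Cnbp, Dhx9 and Tfrc. The same rule called 30.1% of all coding genes. Mbnl1, Tra2b, Arl4c and Pde3b could not reach 25 points. Control peaks left only 1.66% (Arl4c) to 15.8% (Pde3b) of their bodies uncovered. The count of 3 is thus bounded by the choice of the genes and is not read against the 30.1%. None of the 8 was 25 points or more higher in control cells, against 3.07% of coding genes. With peaks at q up to 0.05, 5 of 8 genes differed by 25 points or more (26.3% of coding genes), Cbl and Pde3b having been added. In the first 5 kb of the gene the count was 0 of 8 (32.7% of coding genes), with a largest difference of 12.1 points at Cbl. Control peaks covered 87.9% (Cbl) to 100% of that stretch at the 8 genes, so none could reach 25 points there. For Pde3b the stretch runs from its lower coordinate. The 32.7% is over 21887 genes, of which 17492 had a known strand. The median difference was 18.7 points for the 8 genes, 0 points over all coding genes, and 41.7 points over the other 850 of the 858 coding genes that held a control peak at q up to 0.05 (3.92% of coding genes). Control coverage, which the choice of the genes bears on, limits how large this difference can be.

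**Figure D2:**
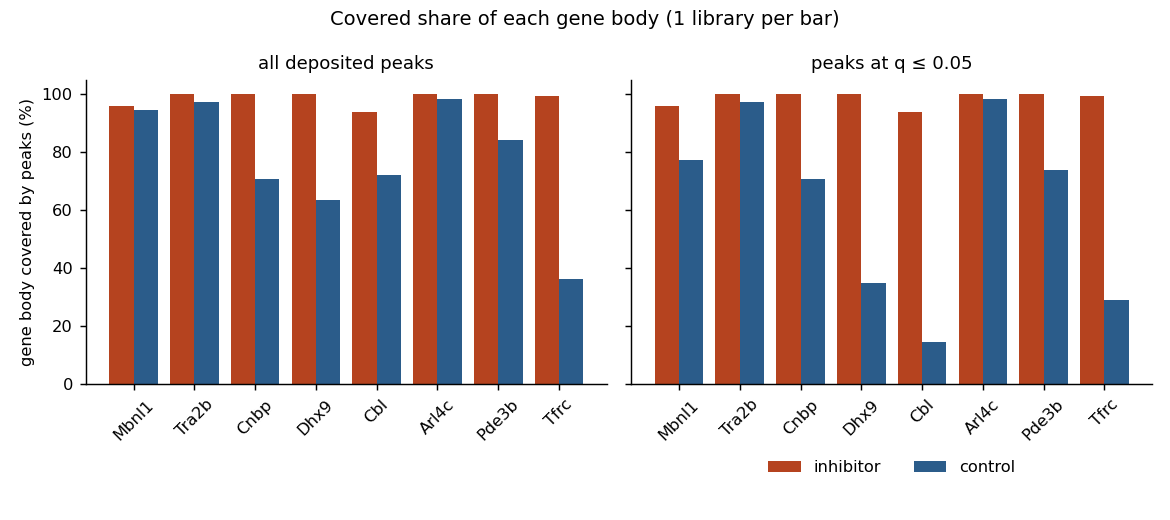
Bars give the percentage of each gene body covered by peaks in inhibitor cells (left bar of each pair) and control cells (right bar), from all deposited peaks (left panel) and from peaks at q up to 0.05 (right panel). Each bar is 1 library, so there are no error bars. Inhibitor bars stand between 93.9% and 100%, and control bars at q up to 0.05 go down to 14.5% at Cbl.

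The genes were chosen with the results of both lists known, so their coverage beside that of other genes with a strong control peak is a description. Of the 850 other genes with a control peak at q up to 0.05, 813 were covered over at least 50% in inhibitor cells, 95.6% (95% Wilson interval 94.1 to 96.8, which covers counting error only). At least 90% of the body was covered at 632 of them, 74.4% (71.3 to 77.2), and at all 8 of the genes described here. In 642 of the 850, 75.5% (72.5 to 78.3), coverage was 25 points or more higher in inhibitor cells. Control coverage was 25 points or more higher in 0 of the 850. The intervals count the 850 genes as independent. Some have the same strongest peak values in both lists, as Akap8 and Akap8l do, so the intervals may be too narrow.

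Mbnl1 (chromosome 3, 60472559 to 60629750, mm10) had nearly the same peak in both lists. Its body of 157 kb was covered over 96.0% in inhibitor cells and 94.5% in control cells. The 5′ peak was 24.49 kb wide in inhibitor cells, with a fold of 7.42 and a −log10 q of 43.0, the highest of any coding gene in that list. In the control list this peak was 24.51 kb wide, with a fold of 6.88 and a −log10 q of 41.8. Its edges lay 50 bp and 33 bp apart between the lists, and it began 6.77 kb before the annotated gene in inhibitor cells and 6.82 kb before it in control cells. A second peak covered most of the rest of the gene in inhibitor cells, over 133 kb at a fold of 6.40. The second control peak had a fold of 4.04 and ended after 104 kb, and 2 peaks with q above 0.05 followed it towards the 3′ end. With peaks at q up to 0.05 alone, 96.0% of the body was covered in inhibitor cells and 77.2% in control cells.

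Tra2b (chromosome 16, 22244552 to 22266005), an SR-like activator of splicing, was covered by a single peak in each list. The inhibitor peak of 23.1 kb had a fold of 6.37 and a −log10 q of 39.2 and covered 100% of the gene. The control peak of 20.9 kb had a fold of 5.50 and a −log10 q of 34.4 and covered 97.5%. Within each list Tra2b stood at rank 2 (inhibitor) and rank 3 (control) of all coding genes by −log10 q. Mbnl1 and Tra2b were thus near the top of both lists.

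Cnbp (chromosome 6, 87842615 to 87851106) was covered over 100% of its 8.49 kb in inhibitor cells and 70.9% in control cells. The inhibitor peak spanned 17.6 kb (fold 5.11, −log10 q 22.7) and ran 7.57 kb past the 3′ end into Isy1, a gene of the spliceosome, which was covered over 58.7% in that list and 38.9% in control cells. The control peak spanned 7.39 kb (fold 5.36, −log10 q 24.7) and ended inside the gene, 6.02 kb from its 5′ end. Both peaks began upstream, 1.58 kb and 1.37 kb before the gene. Gm44064 is annotated over the 5′ end of Cnbp and was covered over 100% in both lists, so the signal there cannot be given to either gene.

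At Dhx9 (chromosome 1, 153455756 to 153487688) the lists differed in how far the called peaks reached. A single inhibitor peak of 35.7 kb (fold 4.14, −log10 q 15.7) covered 100% of the gene. The strong control peak of 11.2 kb (fold 5.17, −log10 q 28.8) lay over the 5′ part, from 0.035 kb to 11.2 kb into the gene. It was followed by 3 control peaks with q above 0.05 and folds of 1.50 to 1.60, which brought the control coverage to 63.6%. At q up to 0.05 the control list covered 35.0%.

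Cbl (chromosome 9, 44142976 to 44234259) was covered over 93.9% in inhibitor cells and 72.3% in control cells. Its 2 inhibitor peaks spanned 24.2 kb (fold 5.76, −log10 q 21.7) and 72.4 kb (fold 4.57, −log10 q 11.4). The strong control peak covered 13.3 kb at the 5′ end (fold 5.21, −log10 q 16.6). The rest of the control coverage came from 4 weak peaks, the widest of 44.7 kb with a fold of 2.28 and a −log10 q of 0.941. With peaks at q up to 0.05 alone, Cbl was covered over 93.9% in inhibitor cells and 14.5% in control cells, the lowest control value of the 8 genes. The 5′ inhibitor peak ran 10.3 kb upstream into Ccdc153, which was covered over 71.7% in inhibitor cells and 20.7% in control cells. The other ran 0.648 kb past the 3′ end into Mcam, an adhesion molecule gene covered over 27.3% and 10.8%. Coverage beyond Cbl thus cannot be given to Cbl alone.

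Arl4c (chromosome 1, 88698225 to 88702191) is the shortest of the 8 genes, at 3.97 kb. It was covered over 100% in inhibitor cells and 98.3% in control cells. The inhibitor peak spanned 13.6 kb (fold 4.17, −log10 q 15.9), of which 3.43 kb lay before the gene and 6.18 kb after it. The control peak spanned 4.62 kb (fold 5.74, −log10 q 24.8) and ended 0.722 kb after the gene. Covered percent hardly differed here because both peaks filled the body.

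Pde3b (chromosome 7, 114415222 to 114537938) was covered over 100% of its 123 kb in inhibitor cells, by a single peak of 129 kb with a fold of 6.26 and a −log10 q of 30.4. By −log10 q this gene stood at rank 6 of the inhibitor list. The strong control peak of 94.7 kb (fold 5.18, −log10 q 19.5) began 0.321 kb from the edge of the inhibitor peak and ended 90.9 kb into the gene, counted from its lower coordinate. Beyond it lay 6 weak control peaks of 1.13 to 2.91 kb, which together brought the control coverage to 84.2%.

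Tfrc (chromosome 16, 32608896 to 32632794) had the largest difference of the 8 genes with all peaks (63.1 points). With peaks at q up to 0.05 alone its difference was 70.3 points, and that of Cbl was larger, at 79.3 points. It was covered over 99.5% in inhibitor cells and 36.4% in control cells. The inhibitor peak spanned 26.5 kb (fold 4.03, −log10 q 13.9). The strong control peak spanned 6.98 kb (fold 5.22, −log10 q 23.4) and lay from 0.183 kb to 7.16 kb into the gene. In the control list 1 weak peak of 1.73 kb followed it. At the first 5 kb of Tfrc coverage was 100% in inhibitor cells and 96.3% in control cells, so the difference lay beyond the 5′ part.

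**Figure D3:**
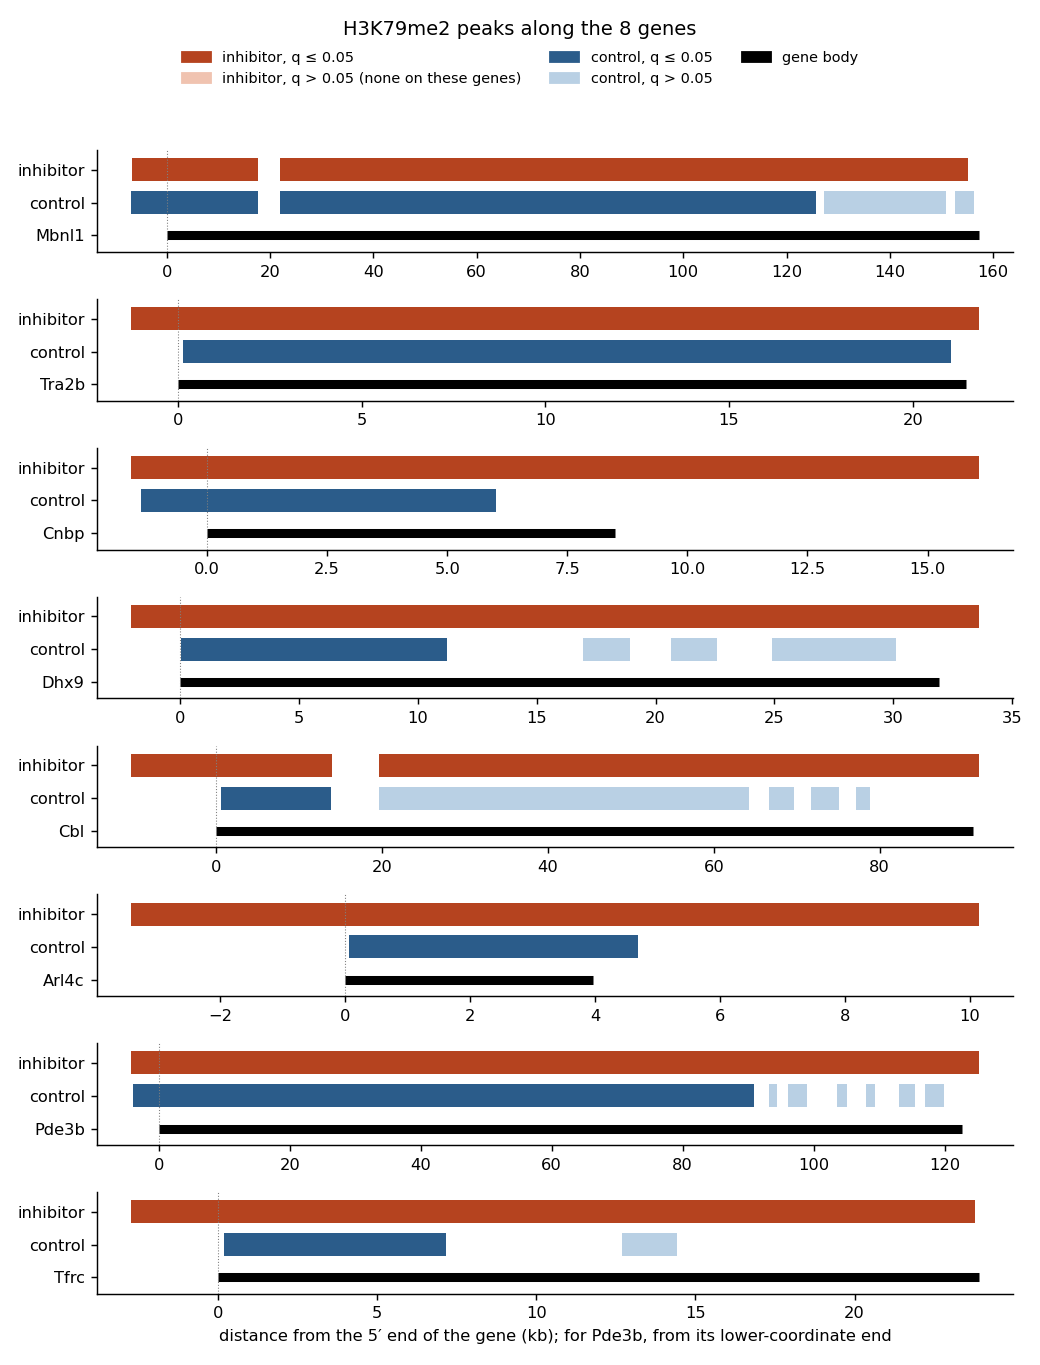
Horizontal bars show the peaks of the inhibitor list (upper) and the control list (lower) along each gene, with the gene body in black below them. The axis gives the distance in kb from the 5′ end of each gene, or from the lower-coordinate end of Pde3b, and each gene has its own scale. Dark bars are peaks at q up to 0.05 and pale bars weaker peaks, which occur in control cells alone (16 peaks on 5 of the genes).

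The 8 genes held 10 inhibitor peaks, all at q up to 0.05, and 25 control peaks, 9 at that q and 16 above it. The weak control peaks had folds of 1.46 to 2.28 and −log10 q of 0 to 0.941. Of these 16 peaks, 15 lay wholly inside inhibitor peaks, and the other, at the 3′ end of Mbnl1, was inside over 71.8% of its length. Among 56947 weak control peaks on any coding gene, 31.2% lay wholly inside inhibitor peaks. Inhibitor peaks covered 93.9% to 100% of the 8 bodies, against a median of 0.446% over all coding genes. The contrast between these weak peaks thus restates the coverage of the bodies. The strongest control peak lay wholly inside an inhibitor peak at 7 of the 8 genes, and over 99.8% of its length at Mbnl1. Of the 794 other control peaks at q up to 0.05, 738 did so, 92.9%. The inhibitor peak was between 0.999 times (Mbnl1) and 3.80 times (Tfrc) as wide as the strongest control peak, with a median of 2.11. Of the 794 other control peaks at that q, 784 overlapped an inhibitor peak and so had a ratio. Over these 784 the median ratio was 3.29, with quartiles of 2.19 and 5.44.

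Coverage along the gene, in 3 equal parts from the 5′ end (from the lower coordinate for Pde3b), showed where the lists parted. At q up to 0.05 the inhibitor list covered the first part of the 8 genes over 81.6% (Cbl) to 100%, the middle part over 100% in all 8, and the last part over 96.2% (Mbnl1) to 100%. The control list covered the first part over 43.5% (Cbl) to 100%. Its middle part was at 100% in Mbnl1, Tra2b, Cnbp, Arl4c and Pde3b, at 5.42% in Dhx9, and at 0% in Cbl and Tfrc. The last part was at 100% in Arl4c, 94.3% in Tra2b, 39.8% in Mbnl1, 22.2% in Pde3b, 12.8% in Cnbp and 0% in Dhx9, Cbl and Tfrc. The 3 genes with no strong control coverage of the last part thus had full or nearly full inhibitor coverage there. Medians of 691 other genes with a control peak at that q and a known strand were 100%, 100% and 100% in inhibitor cells and 77.5%, 24.1% and 0% in control cells.

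**Figure D4:**
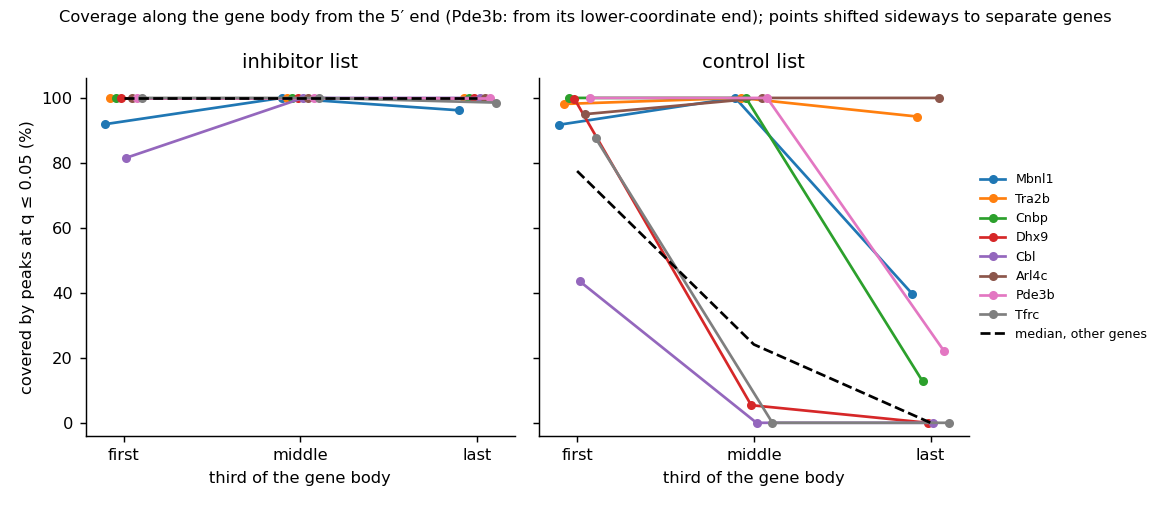
Points give the percentage of the first, middle and last part of each gene body covered by peaks at q up to 0.05, in inhibitor cells (left) and control cells (right). Coloured lines join the values of a gene and the dashed line joins the medians of 691 other genes. Inhibitor lines stay between 81.6% and 100%, while control lines end at 0% for Dhx9, Cbl and Tfrc and at 100% for Arl4c.

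The first edges of the called peaks also differed. Inhibitor peaks began before the first end of the annotated gene, which for Pde3b is its lower coordinate, at all 8 genes, by 1.26 kb (Tra2b) to 10.3 kb (Cbl). Control peaks did so at Mbnl1 and Cnbp, and at the lower coordinate of Pde3b. At the other 5 the control peak began inside the gene, 35 bp from its 5′ end at Dhx9, 66 bp at Arl4c, 133 bp at Tra2b, 183 bp at Tfrc and 605 bp at Cbl. How often peaks began before other genes was not counted, so these starts are not shown to be particular to the 8. Promoter windows from RefSeq (GRCm38.p6, the assembly that mm10 names; 250 bases before to 50 after each start site) were found for 7 of the 8 genes, Pde3b being without an entry. A whole window was covered in inhibitor cells at 7 of 7 genes, with 28.4% of 17492 genes called, and in control cells at 2 of 7, Mbnl1 and Cnbp, with 7.84% called.

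The 250 bases before the start site are shown for 3 genes where the inhibitor peak ran across them and the control peak began 7 bp (Dhx9), 66 bp (Arl4c) or 133 bp (Tra2b) past the start site, and for Cnbp, where both peaks ran across them. All are written 5′ to 3′ on the minus strand, which is the strand of the gene, with the matches named in the next paragraph in capitals. They are Dhx9 at chr1:153487661-153487910, Arl4c at chr1:88702192-88702441, Tra2b at chr16:22266006-22266255 and Cnbp at chr6:87851107-87851356.
Dhx9: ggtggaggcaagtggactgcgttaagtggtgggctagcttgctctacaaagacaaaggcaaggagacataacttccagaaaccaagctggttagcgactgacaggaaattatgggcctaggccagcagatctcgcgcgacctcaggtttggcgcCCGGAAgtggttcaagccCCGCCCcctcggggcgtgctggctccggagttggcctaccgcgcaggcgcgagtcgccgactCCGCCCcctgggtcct
Arl4c: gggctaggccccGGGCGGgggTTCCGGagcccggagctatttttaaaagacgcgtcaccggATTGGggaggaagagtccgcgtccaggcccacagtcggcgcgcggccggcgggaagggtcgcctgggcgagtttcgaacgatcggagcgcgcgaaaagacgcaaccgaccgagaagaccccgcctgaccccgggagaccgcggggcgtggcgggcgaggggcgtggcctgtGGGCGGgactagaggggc
Tra2b: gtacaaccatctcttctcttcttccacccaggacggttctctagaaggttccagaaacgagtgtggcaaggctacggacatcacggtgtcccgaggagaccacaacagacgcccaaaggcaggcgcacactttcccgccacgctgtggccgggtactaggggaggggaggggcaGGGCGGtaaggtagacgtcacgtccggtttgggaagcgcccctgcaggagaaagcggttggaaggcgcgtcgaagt
Cnbp: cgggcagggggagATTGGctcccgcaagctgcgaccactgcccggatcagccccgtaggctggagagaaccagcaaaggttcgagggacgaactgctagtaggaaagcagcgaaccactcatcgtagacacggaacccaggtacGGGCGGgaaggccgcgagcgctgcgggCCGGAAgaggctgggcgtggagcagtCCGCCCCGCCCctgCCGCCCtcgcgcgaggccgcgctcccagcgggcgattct

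In capitals are GGGCGG (the GC box bound by SP factors), CCGGAA (the core of ETS sites), the CCAAT box, the TATA box with the letters TATAAA, and the E-box with the letters CACGTG, each searched on both strands, and matches that touch or overlap are printed as a single run. GGGCGG was present in 7 of the 9 stretches of 250 bases that precede start sites of the 7 genes, against 42.6% of 21263 such stretches before coding genes. CCGGAA was present in 4 of 9, in Cnbp, Dhx9, Cbl and Arl4c, against 15.0%. The CCAAT box was present in 4 of 9 against 35.4%, the TATA box in 1 of 9 against 11.6% and the E-box in 1 of 9 against 6.63%. The TATA box and the E-box were both in the upstream stretch of Mbnl1 (chr3:60472580-60472829), which has a GC content of 38.0% and 1 CpG. The other 8 had a GC content of 60.8% to 73.6% and 18 to 35 CpG, against medians of 55.6% and 10 over all. These matches are letters in a window and say nothing of binding.

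Inside the bodies, both gaps of the inhibitor list fell where the control list had a gap too. In Mbnl1 a gap of 4.24 kb in inhibitor cells and 4.34 kb in control cells separated the 5′ peak from the rest, with ends that differed by 33 bp and 70 bp between lists. In Cbl a gap of 5.61 kb and 5.74 kb lay about 14.0 kb into the gene, with ends that differed by 25 bp and 102 bp. The 8 bodies held 2 gaps in inhibitor cells and 17 in control cells, and the other 15 control gaps were filled in inhibitor cells. That count restates the nearly full inhibitor coverage of these bodies. Of the 18 edges of strong control peaks on these genes, 6 had an inhibitor edge within 500 bp. These lay at Mbnl1, Cnbp, Cbl and Pde3b, and none at Tra2b, Dhx9, Arl4c or Tfrc. Those at 33 bp and 70 bp in Mbnl1 and 102 bp in Cbl are ends of the gaps described above. Among 1588 edges of other strong control peaks the share within 500 bp was 5.67%, and the median distance was 5.19 kb.

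Relatives of the 8 genes had median coverages of 54.5% in inhibitor cells and 13.3% in control cells. Of these 12 genes, 7 (58.3%) were covered over at least 50% in inhibitor cells and 2 (16.7%) in control cells, against 26.1% and 5.47% of coding genes. Tra2a, the other transformer gene, was covered over 99.6% and 54.5%, and Dhx15, a helicase of the spliceosome, over 100% and 78.2%. Mbnl2 was covered over 70.3% in inhibitor cells and 19.3% in control cells, and Mbnl3 over 55.3% and 3.15%, so both stood below Mbnl1 in either list. Cblb, another ubiquitin ligase of T cells, was covered over 81.3% and 41.6%, and Arl4a over 75.1% and 37.3%. Pde3a was covered over 0% and 7.46%, and Cblc, Arl4d and Zcchc13, a relative of Cnbp, over 0% in both. At 6 of the 12 (50%), coverage was 25 points or more higher in inhibitor cells, against 30.1% of coding genes.

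Lists of genes with related functions had median coverages between those of the 8 genes and of all coding genes in each list, while 6 of the 7 median differences were above the 18.7 points of the 8 genes. Control coverage of the 8 genes, which their choice bears on, limits their differences, so this order is a description. Coverage of at least 50% was reached by 26.1% of coding genes in inhibitor cells and 5.47% in control cells. Of 22 regulators of alternative splicing, 20 were covered over at least 50% in inhibitor cells and 13 in control cells, with median coverages of 99.4% and 63.1%. Srsf3 was covered over 100% and 92.4%, Srsf7 over 100% and 93.9% and Srsf10 over 100% and 88.6%, whereas Srsf6 was covered over 99.2% and 26.9%. In this list 13 genes (59.1%) were higher by 25 points or more in inhibitor cells and 0 in control cells. The shares of all coding genes were 30.1% and 3.07%. The median difference in this list was 33.4 points. Of 17 helicases, 7 (41.2%) and 3 (17.6%) were covered to that extent. Ddx5 was at 100% and 84.1% and Ddx3x at 99.7% and 80.1%, while Dhx29 was at 8.40% and 17.2%.

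Among 16 partners of CBL and ubiquitin ligases of T cells, 11 were covered over at least 50% in inhibitor cells and 3 in control cells. In this list 11 (68.8%) were higher in inhibitor cells by 25 points or more, against 30.1% of coding genes. Grb2, an adaptor, was covered over 100% and 88.6%, the kinase gene Lck over 100% and 22.6%, and Sla2, an adaptor that restrains receptor signalling, over 100% and 16.4%. Zap70 was covered over 0% and 6.84%. Of 18 ARF family and cytohesin genes, 12 (66.7%) and 5 (27.8%) were covered, with Arf6 at 100% and 96.9% and Arf5 at 100% and 0%. Of 15 iron genes, 8 (53.3%) and 3 (20.0%) were covered. The ferritin heavy chain gene Fth1 was at 100% and 26.0%, the iron sensor Fbxl5 at 100% and 48.2%, and the iron exporter Slc40a1 at 0% and 13.1%. Of 17 genes for cyclic AMP turnover and protein kinase A, 5 (29.4%, near the share of all coding genes) and 3 (17.6%) were covered, with Pde7a at 100% and 74.7%, Creb1 at 100% and 50.7% and Pde4d at 21.8% and 34.9%. Over these 7 lists, which hold 107 different genes, 55 were higher in inhibitor cells by 25 points or more, 51.4% of them, against 30.1% of coding genes.

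**Figure D5:**
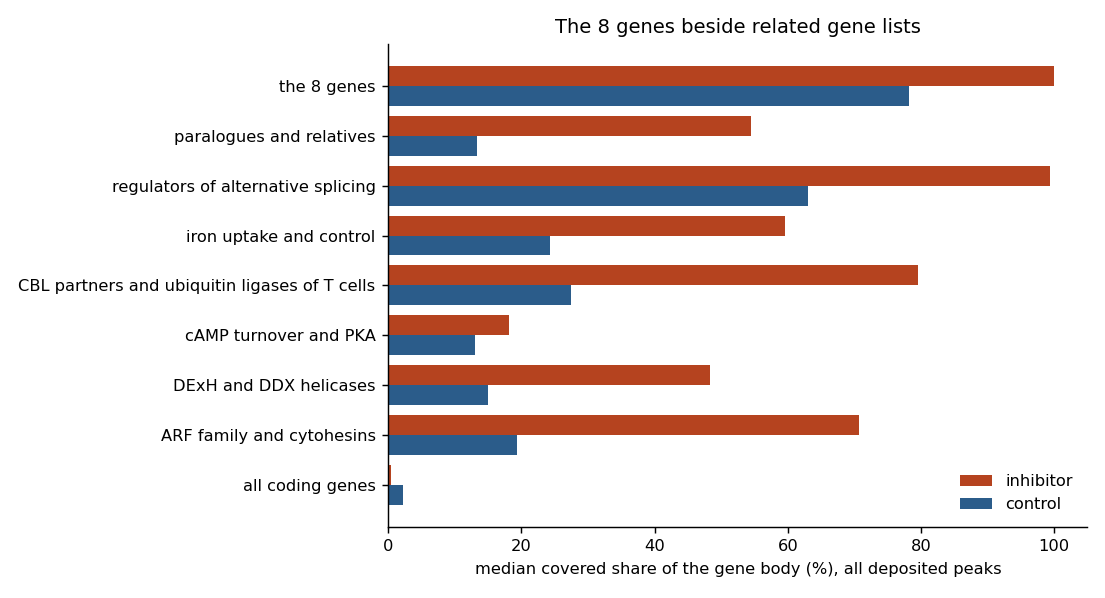
Bars give the median percentage of the gene body covered by all deposited peaks in inhibitor cells (upper bar of each pair) and control cells (lower bar), for the 8 genes, 7 related lists and all coding genes. The 8 genes stand at 100% and 78.2% and all coding genes at 0.446% and 2.24%. Genes belong to more than 1 list in some cases.

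The genes most like the 8 were found from 4 values per gene, the covered percent and the highest −log10 q in each of the 2 libraries, as percentile ranks over all coding genes. The closest to the medians of the 8 genes were Hnrnpa2b1, at a distance of 0.138 percentile points, Hnrnpf (0.250), Ppp2ca (0.486), Ikzf1 (0.494) and Smc4 (0.526). Hnrnpa2b1 and Hnrnpf encode RNA-binding proteins of the hnRNP family, Ppp2ca a catalytic subunit of the phosphatase PP2A, Ikzf1 the lymphoid transcription factor Ikaros, and Smc4 a subunit of condensin. All 5 were covered over 100% in inhibitor cells. In the control list they were covered over 75.3% (Hnrnpf) to 82.3% (Smc4). Coverage in both lists was part of the likeness, so these values are a description. Their highest control folds were 3.23 to 4.45, all below the lowest of the 8 genes. The 8 genes were chosen on strong control peaks, so that order follows from the choice.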

How the data were processed

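H3K79me2 ChIP-seq was done in 2 ChIP libraries, 1 per condition, and 2 inputs. BWA, MACS2 2.1.0 and the build mm10 are named, per the submitters' processing notes, with no role given. The sources used here do not state the caller options or whether inputs served as background. The deposited broad peak lists give, per peak, a fold enrichment (a ratio), −log10 p, −log10 q and a deposited score, the whole part of 10 times −log10 q. Peaks had been kept down to a −log10 p of 1.00. Fold and q are sensitive to depth, which is unknown.

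Peaks on chromosomes 1 to 19, X and Y (8 peaks per list lay elsewhere) were joined where they met and laid over 21887 RefSeq gene bodies (GRCm38.p6), with Python 3.11.15, pandas 2.3.3, numpy 2.4.6 and scipy 1.17.1. Strand, known for 17492 genes, came from the promoter table. A gene was called covered at 50% of its body and different at 25 points. Coverage functions were tested on simulated data. With 1 library per condition no test was run. The alternatives were q up to 0.05, −log10 q of at least 5, fold of at least 3, joining within 1 kb, the first 5 kb, 80% with 50 points, and equal list lengths. The genes and lists were chosen with earlier results of these data known. The genes named are the 8, the list genes, genes under the same peaks, the next 2 by control fold and by q, and the 5 most alike. Genes with control folds as high as those of the 8, and the other examples, were picked after their values were seen.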

Additional observations from a re-analysis of the deposited data

How the results depend on the processing

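The count of the 8 genes covered over at least 50% in inhibitor cells was 8 under all 7 alternatives. The count of genes 25 points or more higher in inhibitor cells, 3 as reported, was 5 with peaks at q up to 0.05, at −log10 q of at least 5 and at fold of at least 3, with a median difference of 27.5 points in each. It was 0 in the first 5 kb of the genes, with a median difference of 1.18 points. No other count was possible there, because control peaks covered 87.9% to 100% of that stretch. At 80% of the body and 50 points the count was 1, the control list covered 4 genes, and 19 of the list genes differed. These changes follow from the weak control peaks that the filters remove, the shorter window and the higher thresholds. The filters on q, −log10 q and fold gave the same differences for the 8 genes as each other. Joining peaks within 1 kb left the differences of the 8 genes as reported. It could not do otherwise, because the narrowest gap inside these bodies was 1530 bp. Equal list lengths also left them as reported, but the full lists already covered 233.6 Mb (inhibitor) and 234.7 Mb (control). That alternative could therefore change little. No paired analysis was possible because each condition has 1 library, and for the same reason none could be left out. Read depth is unknown, so an absent control peak is not shown to be an absent mark.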

Other observations

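Of the coding genes with a control fold as high as those of the 8, Srsf3, which encodes a splicing factor of the SR family, had the highest −log10 q of the control list, 51.8, and was covered over 100% in inhibitor cells and 92.4% in control cells. Stard3nl had a control −log10 q of 32.2, and its body was covered over 76.6% in inhibitor cells and 40.9% in control cells, but over 22.9% and 5.08% at q up to 0.05. Srgap3 had a control fold of 6.61 over 0.324% of its 229.5 kb body and no inhibitor peak at q up to 0.05, its highest −log10 q there being 0.312.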
